A study of Rattus with 9 samples.

Results

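Cxcl12, Cxcr4, Ackr3 and Srgn are 4 of the 23836 gene symbols measured by single-cell RNA sequencing (scRNA-seq) of rat bile duct. The set was chosen with earlier results of these data known, its members were then found by symbol, with no threshold on their values, and each symbol belonged to a single feature (Cxcl12, ENSRNOG00000013589; Cxcr4, ENSRNOG00000003866; Ackr3, ENSRNOG00000019622; Srgn, ENSRNOG00000000394). The study held 3 arms of 3 samples each. The sham arm had 3 samples. The ctrl arm was rat liver transplantation (LT) with ischemic injury, sampled once on day 1, once on day 3 and once on day 7 post-LT. The treat arm was the same transplantation with hepatic arterial flow raised by tying off the arteries to the spleen and to the stomach and duodenum, sampled on the same 3 days. The labels state no strain, age or sex and do not say whether libraries of 1 sample came from separate rats, so libraries were summed per sample and p-values measure only the spread between these 9 samples. In such a design the arm, the rat and the day of preparation of a single sample cannot be told apart.

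Cxcl12 is a chemokine made by stromal and endothelial cells (EC) that holds or draws leukocytes and progenitor cells through its G protein-coupled receptor, Cxcr4. Ackr3 is an atypical receptor that binds the same ligand, recruits arrestin in place of the usual G protein signal and carries the chemokine into the cell, so that it lowers the ligand around it. Srgn encodes serglycin, the proteoglycan core protein of the granules of leukocytes and EC, whose sulfated glycosaminoglycan chains bind proteases and chemokines. The axis is best known from bone marrow, where stromal Cxcl12 retains neutrophils and B cell precursors, and from vessels and inflamed tissue.

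The 20 libraries held 139090 cells after filtering, with 2271 to 31625 cells and 9364415 to 193111589 unique molecular identifiers (UMIs, 1 per captured RNA molecule) per sample. Levels are given in CPM, the UMIs of a gene scaled to the same total of UMIs in every sample, or in every cell class of a sample. Of 33 clusters, 28 were named by markers and joined into 14 classes, and 5 stayed unnamed. Each class name means cells like that type. The EC class had all 11 of its markers, the tuft cell class all 10, the mural class (smooth muscle cells and pericytes) 15 of 16, and the 3 fibroblast clusters 7 to 9 of 9. The mural cluster also had 10 of the 11 EC markers. Of the biliary epithelium clusters, 1 of 3623 cells had 3 of 18 markers and the others 9 to 15, and both monocyte clusters had 3 of 7. The macrophage clusters had 4 to 7 of 9, and in sham 1, 380 of 388 macrophages were in a cluster led by Mmp12 and Cxcl13. Cell barcodes found in 2 libraries were at most 0.965% of the smaller library. The ctrl day 3 libraries 2 and 3 stood apart, since the hemoglobin limit removed 2479 and 3966 barcodes and left 404 and 311 cells. Sham 1 also stood apart, with 4.01% fibroblasts against 35.8% and 47.6% in sham 2 and sham 3.

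Over all cells, Cxcr4 and Srgn were higher in both post-LT arms than in sham, Cxcl12 was called lower in ctrl only, and Ackr3 missed the threshold in both. Cxcl12 stood at 286, 214 and 201 CPM in sham 1, 2 and 3, at 27.6, 37.1 and 40.9 CPM in ctrl at days 1, 3 and 7, and at 145, 46.6 and 38.3 CPM in treat at the same days. Every sham sample was above every post-LT sample, and treat day 1 was the highest of the post-LT samples. Cxcr4 stood at 72.7, 54.3 and 58.3 CPM in sham, at 88.1, 184 and 237 CPM in ctrl, and at 83.7, 141 and 257 CPM in treat. Every post-LT sample was above every sham sample, and day 7 was the highest day of each arm.

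Ackr3 stood at 112, 313 and 285 CPM in sham, at 80.9, 68.9 and 49.3 CPM in ctrl, and at 150, 93.5 and 85.8 CPM in treat. The ctrl samples did not overlap with sham, whereas treat day 1 lay above sham 1. Srgn stood at 325, 126 and 103 CPM in sham, at 566, 1159 and 919 CPM in ctrl, and at 376, 669 and 694 CPM in treat. The arms did not overlap with sham, and sham 1 was the nearest sham sample to them. How many of all genes were separated from sham in this way was not counted, over all cells or within classes. In ctrl against sham, 5521 of 16414 genes had an unadjusted p under 0.05 by edgeR.

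**Figure D1:**
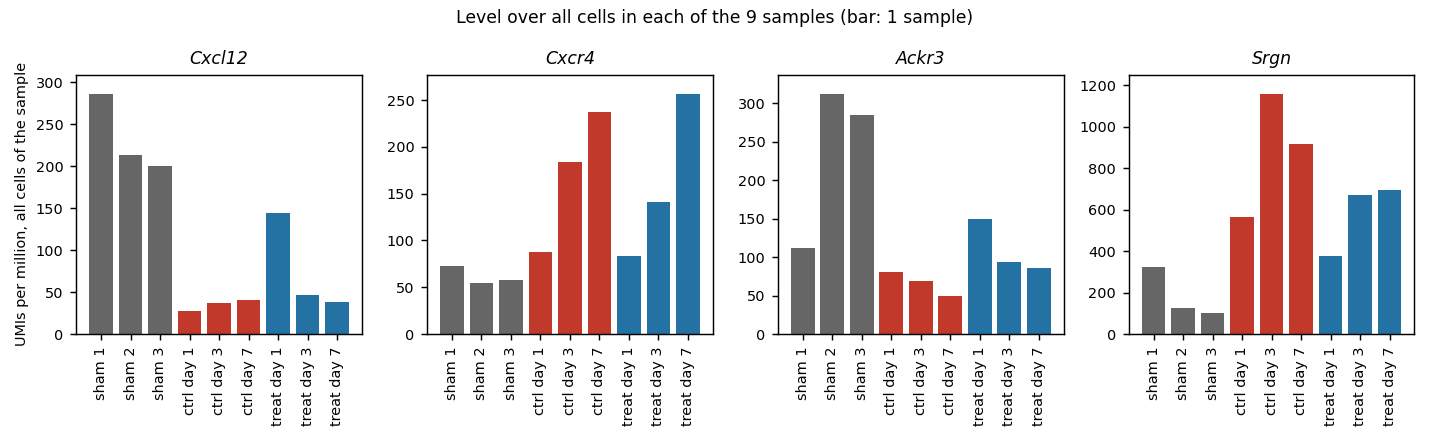
Level of each gene over all cells, in CPM on linear axes that differ between the 4 panels, with 1 bar per sample in the order sham (gray), ctrl (red) and treat (blue). Sham Cxcl12 lay at 201 to 286 CPM and all post-LT samples at 27.6 to 145 CPM, while post-LT Cxcr4 and Srgn lay above sham.

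In ctrl against sham (edgeR quasi-likelihood test over 16414 genes, Benjamini-Hochberg adjustment), Cxcl12 fell by 2.28 on the log2 scale (SE 0.47, adjusted p = 0.035), Cxcr4 rose by 1.70 (SE 0.13, adjusted p = 0.011) and Srgn rose by 2.60 (SE 0.39, adjusted p = 0.019). The Ackr3 difference was -1.58 (SE 0.44, adjusted p = 0.064). Of all genes tested, 12.2% were called in this comparison, against 3 of the 4 genes. In treat against sham, which shares the sham samples with the former comparison, Cxcr4 rose by 1.53 (SE 0.13, adjusted p = 0.017) and Srgn by 1.96 (SE 0.38, adjusted p = 0.045), with 4.74% of all genes called. Cxcl12 (-1.48, SE 0.46, adjusted p = 0.106) and Ackr3 (-0.91, SE 0.43, adjusted p = 0.223) missed the threshold there. These calls depended on single samples. Without sham 2, sham 3, ctrl day 3 or ctrl day 7, Cxcl12, Cxcr4 and Srgn all missed the threshold in ctrl against sham, with adjusted p of 0.055 to 0.117. Cxcl12 also missed it without treat day 3 (adjusted p = 0.061) or treat day 7 (adjusted p = 0.051), and Srgn without ctrl day 1 (adjusted p = 0.061) or treat day 7 (adjusted p = 0.052). With sham 2, sham 3, ctrl day 3 or ctrl day 7 left out in turn, the number of genes called over the whole table fell from 2005 to between 0 and 15. In treat against sham, the Cxcr4 call was lost without sham 2, sham 3 or any treat sample (adjusted p up to 0.109), and the Srgn call without any sample but sham 1 (adjusted p up to 0.187). Without sham 2, sham 3 or any treat sample, the genes called in treat against sham over the whole table fell from 778 to 0 or 1. These losses were thus not particular to the 4 genes. Calls were also gained with 1 sample left out. Ackr3 passed in 1 such edgeR fit in ctrl (adjusted p = 0.006) and in 1 in treat (adjusted p = 0.012), and Cxcl12 in 1 in treat (adjusted p = 0.036).

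Raised arterial flow was compared with transplantation alone at matched days. None of the 4 genes and 0.0% of all genes were called in treat against ctrl by edgeR, where 618 genes had an unadjusted p under 0.05, and DESeq2 called 45 genes, none of them among the 4. The differences were 0.80 (SE 0.47) for Cxcl12, -0.16 (SE 0.12) for Cxcr4, 0.66 (SE 0.43) for Ackr3 and -0.64 (SE 0.36) for Srgn, each with an adjusted p of 0.977. From day 1 to day 7, with both arms in the estimate, Cxcr4 rose by 1.45 (SE 0.16, adjusted p = 0.019), where 3.14% of all genes were called. That call was lost without sham 2, sham 3 or any day 1 or day 7 sample (adjusted p up to 0.237). In each of those fits no gene of the whole table was called over time, against 515 with all samples. Srgn (0.72, adjusted p = 0.384), Cxcl12 (-0.85, adjusted p = 0.428) and Ackr3 (-0.83, adjusted p = 0.397) missed the threshold over time.

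The cells of the duct changed in kind over the same samples. Neutrophils were 3.08%, 0.108% and 0.352% of cells in sham, 26.6%, 31.9% and 7.82% in ctrl and 12.1%, 7.43% and 3.76% in treat. T cells were 0.28% to 3.61% of cells in sham and reached 19.1% in ctrl and 21.5% in treat at day 7. Fibroblasts were 24.5% of cells in treat day 1 and 2.8% to 5.71% in the other post-LT samples. When the shares of the 9 classes with at least 20 cells in every sample were held equal (limma on log2(CPM + 1)), which left out neutrophils, B cells, the other small classes and unnamed cells, the Cxcl12 difference of ctrl against sham was -1.39 (adjusted p = 0.021), that of Ackr3 was -0.50 (adjusted p = 0.078), that of Srgn was 0.24 (adjusted p = 0.188) and that of Cxcr4 turned to -0.31 (adjusted p = 0.370). In treat against sham the values were -1.03 for Cxcl12 (adjusted p = 0.082), -0.39 for Cxcr4 (adjusted p = 0.330), -0.02 for Ackr3 (adjusted p = 0.941) and 0.13 for Srgn (adjusted p = 0.512). Shares of cells depend on tissue digestion and on the dead cell removal, and over all cells fewer cells of a type and less RNA per cell cannot be told apart, so each gene was followed within the classes.

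Cxcl12 was a gene of fibroblasts, EC and mural cells. Its median over samples was 309 CPM in fibroblasts, 327 CPM in EC and 91.5 CPM in mural cells, followed by lymphatic EC at 6.2 CPM, tuft cells at 3.87 CPM and biliary epithelium at 1.93 CPM. Macrophages, monocytes, neutrophils, dendritic cells, T, B and NK cells had medians of at most 1.45 CPM. Fibroblasts and EC led by mean log2(CPM + 1), with a mean difference of 0.04 over all 9 samples (fibroblasts higher in 4 of 9). That mean joins arms and days that went opposite ways. EC were above fibroblasts in every sham sample (700 to 1777 against 336 to 422 CPM) and at day 7 of both arms. Fibroblasts were above EC at days 1 and 3 of both arms. EC were above mural cells by 1.73 in 9 of 9 samples (exact two-sided sign-flip permutation test over samples, p = 0.0039, adjusted p = 0.047). Mural cells were above lymphatic EC by 3.91 in 8 of 8 samples (exact permutation test, adjusted p = 0.047). After thinning each cell to 1000 UMIs, 24.3% ± 4.27 of fibroblasts (SD, n = 9 samples) and 18.7% ± 14.1 of EC (n = 9) had a Cxcl12 UMI, against 0.081% ± 0.133 of neutrophils (n = 7), the leukocytes taken as background. Median UMIs per cell were 5718 to 23698 in fibroblasts, 2359 to 6350 in EC and 976 to 2111 in neutrophils.

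**Figure D2:**
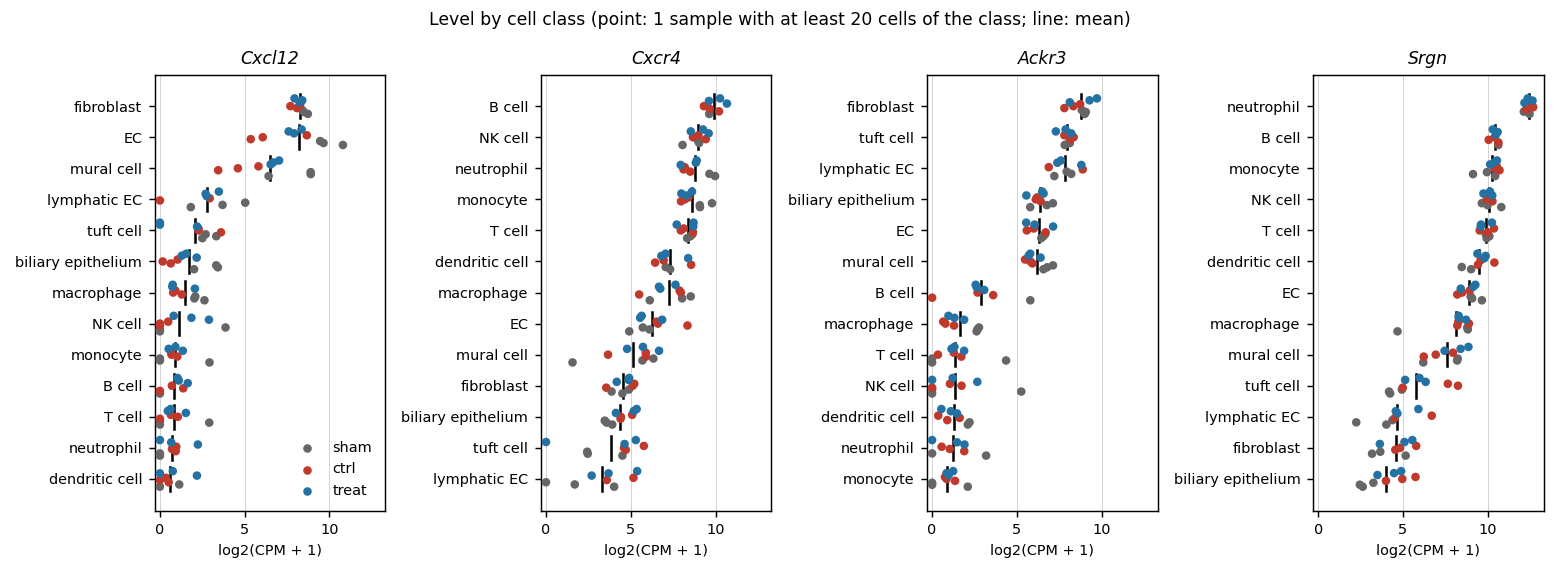
Level of each gene by cell class, as log2(CPM + 1), with classes in the order of their mean (black line) and 1 point per sample that had at least 20 cells of the class, colored by arm. Cxcl12 and Ackr3 had their highest mean in fibroblasts, Cxcr4 in B cells and Srgn in neutrophils.

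The source of Cxcl12 differed between samples. Fibroblasts gave 83.4% and 85.6% of its UMIs in sham 2 and sham 3 but 10.9% in sham 1, where EC gave 86.6%. Fibroblasts gave 89.0%, 90.5% and 55.2% in ctrl at days 1, 3 and 7, and 91.6%, 67.6% and 43.8% in treat. EC gave 4.76%, 6.89% and 38.1% in ctrl and 5.04%, 22.1% and 46.0% in treat. In both arms the EC part was thus highest at day 7.

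Within fibroblasts, no difference of Cxcl12 from sham was called. It stood at 422, 358 and 336 CPM of fibroblasts in sham, at 271, 206 and 309 CPM in ctrl and at 301, 336 and 245 CPM in treat. All 3 ctrl samples were below all 3 sham samples, and treat day 3 reached sham 3. The differences from sham were -0.26 (SE 0.23, adjusted p = 0.463) in ctrl and -0.10 (SE 0.23, adjusted p = 0.831) in treat. The fibroblasts of the samples were not of 1 kind. A cluster led by Ogn and Gpc3 was nearly all from sham, a cluster led by Cthrc1, Mfap5 and Postn came from sham and from days 3 and 7, and a cluster led by Ptx3, Mgp and Ccl11 held 349 of the 357 fibroblasts of ctrl day 1 and 5440 of the 5509 of treat day 1.

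In EC, Cxcl12 was lower in ctrl than in sham. It stood at 1777, 802 and 700 CPM in sham, at 40.0, 66.0 and 405 CPM in ctrl at days 1, 3 and 7, and at 240, 192 and 327 CPM in treat. All 6 post-LT samples were below all 3 sham samples, and ctrl days 1 and 3 were the lowest. How many EC genes were separated likewise was not counted. Ctrl was lower than sham by a log2 difference of -3.18 (SE 0.53, adjusted p = 0.030), where 3.43% of the genes tested in EC were called. The treat difference of -1.89 (SE 0.50, adjusted p = 0.154) missed the threshold, and so did day 7 against day 1 (1.93, SE 0.64, adjusted p = 0.138), although DESeq2 called both (adjusted p = 0.003 and 0.014). Treat against ctrl was 1.29 (SE 0.53, adjusted p = 0.506). With 1 sample left out, day 7 against day 1 ranged from 0.62 to 3.03 and treat against ctrl from 0.71 to 2.12. The ctrl call was lost without sham 2, sham 3, ctrl day 1 or ctrl day 3, with adjusted p from 0.012 to 0.149 over the samples left out and log2 differences from -4.11 to -2.66. Pooled by arm and thinned to 1000 UMIs, 32.5% of EC in sham, 11.6% in ctrl and 13.5% in treat had a Cxcl12 UMI. These pools weight samples by their cells, and ctrl EC were mostly from day 7 (533, 205 and 1037 at days 1, 3 and 7). By single sample over all arms, the share ran from 3.74% to 48.75%.

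Measures of other cells in the EC class are given beside these values. At most 1.55% of the EC Cxcl12 in any sample could come from the RNA of empty barcodes. The 25 stromal markers summed to 540, 1295 and 1948 CPM in sham EC and to 267 to 541 CPM post-LT, with 1 to 6 of them at 0. Col3a1 was the highest of them in sham 2 and sham 3 (555 and 976 CPM) and Mcam in all other samples (152 to 293 CPM). The part of these markers in the result was not tested. The kinds of EC were followed with genes chosen after these results were seen. None of 10 arterial, 5 venous or 4 sinusoidal EC genes tested passed in ctrl against sham within EC by edgeR, and the values nearest to it were those of the arterial gap junction gene Gja4 (1.20, adjusted p = 0.099) and the venous adhesion gene Sele (-1.39, adjusted p = 0.102). With 3.43% of all EC genes called in that comparison, lists this short could give few calls in any case. A change in the mix of EC was thus not tested.

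Mural cells gave a like value for Cxcl12 with less certainty. It stood at 84.1, 475 and 474 CPM in sham, at 9.84, 23.2 and 55.2 CPM in ctrl and at 91.5, 101 and 130 CPM in treat. Every ctrl sample was below every sham sample, while treat lay between sham 1 and the other two. The ctrl difference was -3.75 (SE 0.62, adjusted p = 0.028), with 1.79% of mural genes called, and that of treat was -1.57 (SE 0.55, adjusted p = 0.298). The ctrl call was lost without sham 2, any ctrl sample, treat day 1 or treat day 3 (adjusted p up to 0.218). The treat difference passed without the low-count filter (adjusted p = 0.0002) and without sham 1 (adjusted p = 0.012). It ranged from -1.66 to -0.40 over the processing alternatives. Treat against ctrl was 2.18 (SE 0.60, adjusted p = 0.361) and passed without the low-count filter (adjusted p = 3.0e-07), with libraries as samples (adjusted p = 0.044) and without sham 1 (adjusted p = 0.0099). With finer clusters (Leiden resolution 2) the ctrl value was -1.71 (adjusted p = 0.080), so it rested on which cells were counted as mural. Endothelial markers in mural cells summed to 723, 2495 and 3394 CPM in sham, to 923 to 1201 CPM in ctrl and to 2085 to 2577 CPM in treat, with Plvap or Esam the highest, and their part in the result was not tested. In biliary epithelium Cxcl12 was called lower in ctrl (-3.56, SE 0.62, adjusted p = 0.018), but its level was at most 9.69 CPM, up to 100% of it could come from empty barcodes, ctrl day 3 held 1 UMI, and the call was lost without sham 2, sham 3, ctrl day 1 or ctrl day 3 (adjusted p up to 0.107).

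**Figure D3:**
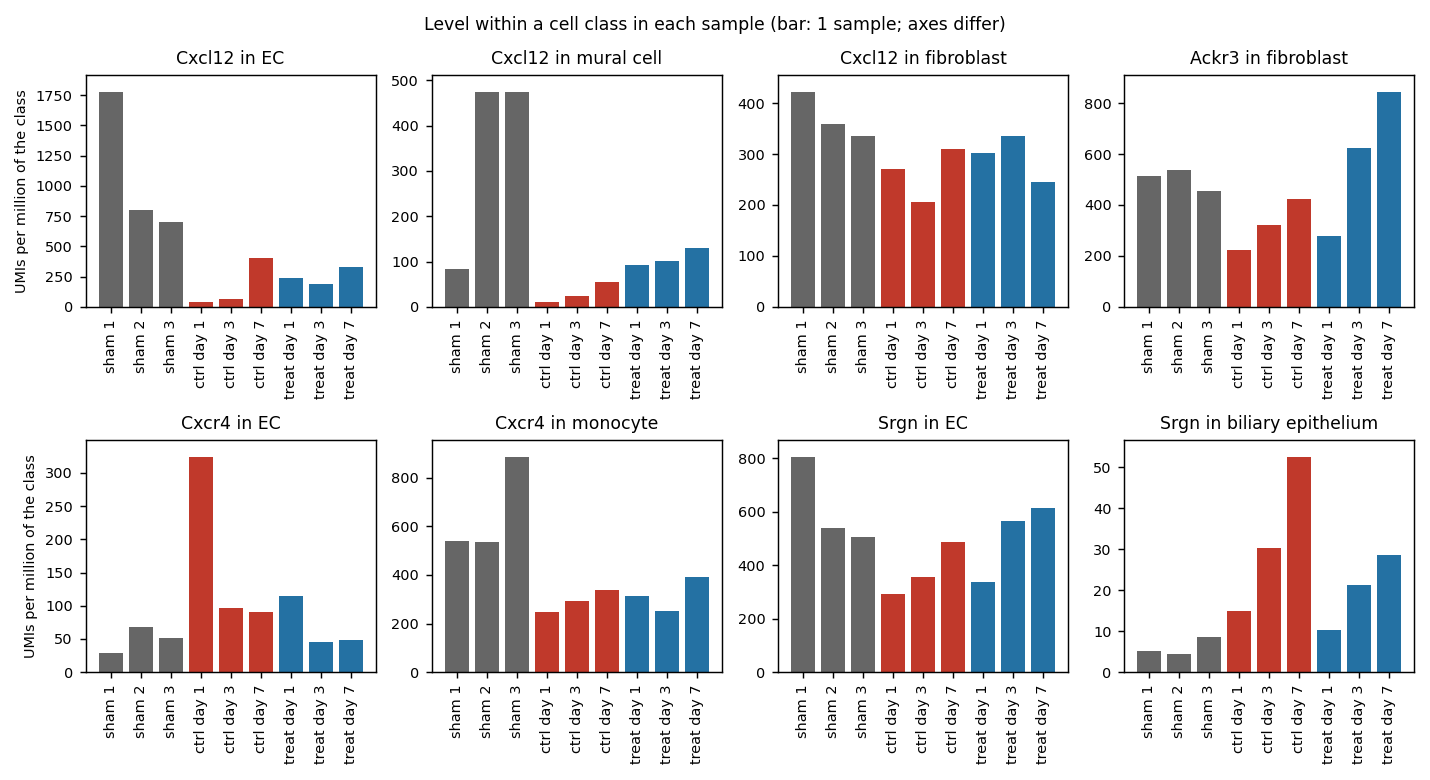
Level within a cell class for 8 pairs of gene and class, in CPM of the class on linear axes that differ between panels, with 1 bar per sample in the order sham (gray), ctrl (red) and treat (blue). EC Cxcl12 lay at 700 to 1777 CPM in sham and 40.0 to 405 CPM in ctrl, while fibroblast Cxcl12 lay between 206 and 422 CPM in all samples.

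Cxcr4 was a gene of leukocytes. Its median was 805 CPM in B cells, 507 CPM in NK cells, 410 CPM in neutrophils, 336 CPM in monocytes, 365 CPM in T cells, 132 CPM in dendritic cells and 198 CPM in macrophages. EC had 67.8 CPM, mural cells 51.6 CPM, fibroblasts 28.2 CPM, tuft cells 23.2 CPM and biliary epithelium 20.1 CPM. No neighbours in this order passed after adjustment. Pairs with 7 or 8 samples could hardly pass, whereas pairs with 9 samples could (smallest p possible 0.0039). The nearest of the latter was EC above mural cells by 1.12 in 7 of 9 samples (exact permutation p = 0.043, adjusted p = 0.172). Both pairs with the same order in every sample were at the smallest p possible, B cells above NK cells by 0.83 in 7 of 7 samples (exact permutation p = 0.0156, adjusted p = 0.094) and T cells above dendritic cells by 1.05 in 8 of 8 samples (exact permutation p = 0.0078, adjusted p = 0.094). A Cxcr4 UMI was found in 54.9% ± 9.92 of B cells (SD, n = 6 samples) and 26.7% ± 4.75 of T cells (n = 9) at 1000 UMIs, against 2.42% ± 0.748 of fibroblasts (n = 9). Median UMIs per cell were 1468 to 2551 in B cells and 2831 to 5306 in T cells.

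The leukocytes that carried Cxcr4 differed between samples. In sham 2 and sham 3, macrophages gave 53.4% and 41.2% of the Cxcr4 UMIs. In ctrl day 1, neutrophils gave 32.6%, and at day 7, T cells, monocytes and B cells gave 20.8%, 20.8% and 19.9%. In treat day 7, T cells gave 30.6% and B cells 20.1%. In sham 1, macrophages gave 7.78%, monocytes 24.1%, neutrophils 18.2% and T cells 14.2%, and in ctrl day 3 macrophages led with 25.9%. In the fits over 9 samples, edgeR did not call Cxcr4 in macrophages, monocytes, T cells or NK cells, while neutrophils and B cells had too few cells in some samples to be tested. Monocyte Cxcr4 stood at 541, 537 and 885 CPM in sham, at 248, 291 and 336 CPM in ctrl and at 314, 252 and 390 CPM in treat. Every sham value was above every post-LT value, but the differences of -0.82 (SE 0.29, adjusted p = 0.261) and -0.77 (SE 0.29, adjusted p = 0.296) missed the threshold in edgeR, while DESeq2 called both (adjusted p = 0.003 and 0.005). The number of monocyte genes separated likewise was not counted. T cell Cxcr4 lay between 208 and 416 CPM in all samples, with differences of -0.06 (SE 0.24, adjusted p = 0.945) in ctrl and 0.02 (SE 0.24, adjusted p = 0.986) in treat. NK cell Cxcr4 lay between 265 and 772 CPM (ctrl 0.38, SE 0.26, adjusted p = 0.550).

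Within classes, Cxcr4 was called higher than in sham only in EC and in biliary epithelium in the fits over 9 samples. In EC, it stood at 29.1, 67.8 and 51.4 CPM in sham, at 324, 96.0 and 90.8 CPM in ctrl and at 114, 45.9 and 49.0 CPM in treat. All ctrl samples were above sham, ctrl day 1 stood far above the rest, and treat days 3 and 7 were within the sham range. The ctrl difference was 1.58 (SE 0.32, adjusted p = 0.038) and the treat difference 0.44 (SE 0.32, adjusted p = 0.598), and treat against ctrl was -1.14 (SE 0.31, adjusted p = 0.346). The ctrl call was lost without any of 7 single samples (adjusted p up to 0.195), after subtraction of empty-barcode RNA (1.52, adjusted p = 0.052) and with libraries as samples (1.76, adjusted p = 0.117). Day 7 against day 1 in EC was -1.60 (SE 0.38, adjusted p = 0.055), and 6 of 7 alternatives called it, among them DESeq2 (adjusted p = 0.004). The common leukocyte gene Ptprc was at most 24 CPM in the EC of any sample. Summed myeloid markers in EC (34 markers, 5 to 17 at 0, Plac8 highest) were 465 to 735 CPM in sham and 1095 to 1850 CPM post-LT. Plac8 alone was 198 to 631 CPM in sham and 572 to 1524 CPM post-LT, so 1 gene made up much of each sum. The part of EC Cxcr4 that could come from empty barcodes was at most 0.727% in ctrl day 1, 4.10% to 12.4% in sham 1 to 3, ctrl day 3 and treat day 1, 16.4% in ctrl day 7, 20.9% in treat day 3 and 46.1% in treat day 7.

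In biliary epithelium, Cxcr4 stood at 14, 10.9 and 10.0 CPM in sham, at 20.1, 20.4 and 32.8 CPM in ctrl and at 16.4, 35.3 and 39.6 CPM in treat. Every post-LT sample was above sham, a separation that was not counted over all epithelial genes. The rises were 1.34 in ctrl (SE 0.23, adjusted p = 0.018) and 1.55 in treat (SE 0.23, adjusted p = 0.027), where 12.9% and 2.66% of epithelial genes were called. The ctrl call was lost without sham 2, sham 3, ctrl day 1 or ctrl day 7 (adjusted p up to 0.0857), and the treat call without sham 2, sham 3, ctrl day 7 or any treat sample (adjusted p up to 0.150). The epithelium of the arms lay in different clusters. A cluster led by Scgb1c1 and Ttr held 1108 of 1729 epithelial cells in sham 2 and 1400 of 1927 in sham 3 but 7 to 33 cells in each post-LT sample. A cluster led by Clca5 held 2426 of 2964 in ctrl day 7, 1947 of 3170 in treat day 3 and 3896 of 4673 in treat day 7. Of 4372 in ctrl day 1, clusters led by Reg3b and by Wfdc21 held 1791 and 1515. In ctrl day 3 the Clca5 and Wfdc21 clusters held 253 and 250 of 731. The largest in treat day 1 was the weakly marked cluster (3 of 18 markers), with 1951 of 4528. Within the Clca5 cluster, Cxcr4 stood at 24.9, 13.1 and 14.4 CPM in sham, at 17.9, 25.7 and 30.5 CPM in ctrl and at 18.6, 27.8 and 35.9 CPM in treat, so the arms overlapped with sham 1 there. Within the Wfdc21 cluster, Cxcr4 was 10.7, 2.89 and 6.96 CPM in sham. It was 12.1, 11.8 and 27.0 CPM in ctrl, all above sham, and 6.52, 16.8 and 23.8 CPM in treat, where day 1 was within the sham range. In the Reg3b cluster all post-LT samples (14.3 to 32.6 CPM) were above sham (0 to 10.6 CPM, 3 to 60 cells). So they were in a cluster led by Gkn3 (51.8 to 94.3 against 21.5 to 45.7 CPM, 9 to 14 sham cells) and in the weakly marked cluster. The Scgb1c1 cluster and a small cluster led by Clca1 overlapped with sham. Summed myeloid markers of the epithelium (34 markers, 0 to 18 at 0, Plac8 highest) were 2207 to 2344 CPM in sham and 3048 to 5552 CPM post-LT. Plac8 alone was 2078 to 2277 CPM in sham and 3720 to 4947 CPM in ctrl, so these sums were mainly 1 gene. Whether that RNA came from leukocytes was not tested. Ptprc was 2.13 to 2.89 CPM in sham, 1.51 and 2.77 CPM at day 1 and 6.78 to 19.3 CPM at days 3 and 7. The part of clusters and markers in the rise was not tested. These levels were low, and 9.36% to 41.1% of them could come from empty barcodes.

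Ackr3 was a gene of fibroblasts, tuft cells and lymphatic EC. Its median was 453 CPM in fibroblasts, 275 CPM in tuft cells, the chemosensory cells of the epithelium, and 218 CPM in lymphatic EC. It was 83.7 CPM in biliary epithelium, 85.7 CPM in EC and 59.3 CPM in mural cells, and at most 5.41 CPM in any leukocyte class. Fibroblasts were above tuft cells in 6 of 9 samples by 0.79 (exact permutation test, adjusted p = 0.125), a test that joins arms and days. Fibroblasts were above in every sham sample (453 to 536 against 225 to 277 CPM). Tuft cells were above at day 1 of both arms and in ctrl day 3. Lymphatic EC were above biliary epithelium by 1.50 in 8 of 8 samples and mural cells above B cells by 3.07 in 7 of 7 samples (exact permutation tests, both at the smallest p possible, adjusted p = 0.094 for both). At 1000 UMIs, 29.6% ± 9.22 of fibroblasts (SD, n = 9 samples) and 20.7% ± 3.43 of tuft cells (n = 9) had an Ackr3 UMI, against 0.282% ± 0.406 of neutrophils (n = 7).

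Fibroblasts gave most Ackr3 UMIs in sham 2 (85.2%) and sham 3 (81.3%) and in 5 of the 6 post-LT samples (62.6% to 81.5%). In ctrl day 1 biliary epithelium gave 59.1% and fibroblasts 24.9%. In sham 1 fibroblasts gave 33.8%, tuft cells 27.7% and biliary epithelium 17.0%.

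Fibroblast Ackr3 was lowest at day 1. It stood at 512, 536 and 453 CPM in sham, at 222, 321 and 424 CPM in ctrl and at 278, 624 and 845 CPM in treat at days 1, 3 and 7. Both day 1 samples were below both day 7 samples. It rose from day 1 to day 7 by 1.03 (SE 0.27, adjusted p = 0.023), in a comparison that called 29.4% of fibroblast genes, and the rise missed the threshold without ctrl day 7, treat day 1 or treat day 7 (log2 values 0.59 to 1.54 over all samples left out). The differences from sham were -0.43 (SE 0.22, adjusted p = 0.202) in ctrl and 0.31 (SE 0.22, adjusted p = 0.428) in treat, and treat against ctrl was 0.75 (SE 0.22, adjusted p = 0.279).

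By cluster, the Ptx3, Mgp and Ccl11 cluster, which held nearly all day 1 fibroblasts, had 222 CPM in ctrl and 272 CPM in treat at day 1. At days 3 and 7 it had 231 and 37.65 CPM in ctrl (58 and 27 cells). In treat it had 205 and 132 CPM at these days (122 and 69 cells). Day 7 was thus the lowest day of this cluster in both arms, on few cells. The Cthrc1, Mfap5 and Postn cluster had 594 to 623 CPM in the sham samples, 209, 331 and 430 CPM in ctrl at days 1, 3 and 7 (7 cells at day 1), and 632, 683 and 902 CPM in treat at days 1, 3 and 7. Within that 1 cluster, day 1 was the lowest and day 7 the highest in both arms, the values of ctrl were below those of sham and those of treat above, a description of a few samples with no test. The part of the clusters in the rise over time was not tested.

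Among the other classes, mural Ackr3 stood at 93.8, 109 and 139 CPM in sham, at 59.3, 54.8 and 43.7 CPM in ctrl and at 83.3, 50.8 and 54.2 CPM in treat, with no overlap with sham. The number of mural genes without overlap was not counted. The ctrl difference of -1.11 (SE 0.24) was just past the threshold (adjusted p = 0.048), was lost without any of 8 single samples (adjusted p up to 0.323) and under 4 of 8 processing alternatives (adjusted p up to 0.0935), and was -0.82 in treat (SE 0.23, adjusted p = 0.201). Tuft cell Ackr3 lay between 157 and 325 CPM and did not pass (ctrl 0.11, SE 0.22, adjusted p = 0.889; treat -0.14, SE 0.22, adjusted p = 0.935). Biliary Ackr3 lay between 46.2 and 139 CPM (ctrl -0.19, SE 0.41, adjusted p = 0.793). EC Ackr3 lay between 45.8 and 140 CPM (day 7 against day 1 -1.18, SE 0.28, adjusted p = 0.056, called by 4 of 7 alternatives, among them DESeq2 with adjusted p = 0.015). Macrophage Ackr3 was called lower in ctrl (-2.57, adjusted p = 0.025) and treat (-1.74, adjusted p = 0.046), with 6.21% and 2.42% of macrophage genes called, but at no more than 5.8 CPM, of which up to 100% could come from empty barcodes. The macrophages lay in different clusters, since a cluster led by Cideb and F13a1 held 1092 and 852 cells in sham 2 and sham 3 and 1 to 53 in all other samples. These calls were lost without any of 6 single samples in ctrl (sham 2, sham 3, any ctrl sample or treat day 7, adjusted p up to 0.207) and without any sample but sham 1 in treat (adjusted p up to 0.312).

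Among the classes named, Srgn was highest in neutrophils, and it was present in every leukocyte class. Its median was 5448 CPM in neutrophils, 1432 CPM in B cells, 1339 CPM in monocytes, 1016 CPM in NK cells, 979 CPM in T cells and 723 CPM in dendritic cells. EC followed with 506 CPM, macrophages with 313 CPM and mural cells with 246 CPM, and tuft cells, fibroblasts, lymphatic EC and biliary epithelium had 14.9 to 34.0 CPM. Neutrophils were above B cells by 2.05 in 6 of 6 samples (exact permutation p = 0.0313, the smallest possible, adjusted p = 0.094). After thinning to 1000 UMIs, 98.3% ± 0.723 of neutrophils (SD, n = 7 samples) and 36.4% ± 9.20 of EC (n = 9) had a Srgn UMI, against 2.38% ± 1.14 of fibroblasts (n = 9).

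The neutrophil level lay between 4474 and 6549 CPM in the 8 samples with enough cells. Neutrophils gave 22.9%, 0.762% and 2.80% of Srgn UMIs in sham, 69.3%, 53.1% and 19.3% in ctrl and 39.1%, 17.9% and 8.05% in treat. In treat day 3, monocytes gave 41.0%, and in treat day 7, T cells gave 33.0%. EC gave 34.5%, 14.1% and 13.5% of it in sham. Unnamed clusters held up to 34.7% of the Srgn UMIs, in sham 3.

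**Figure D4:**
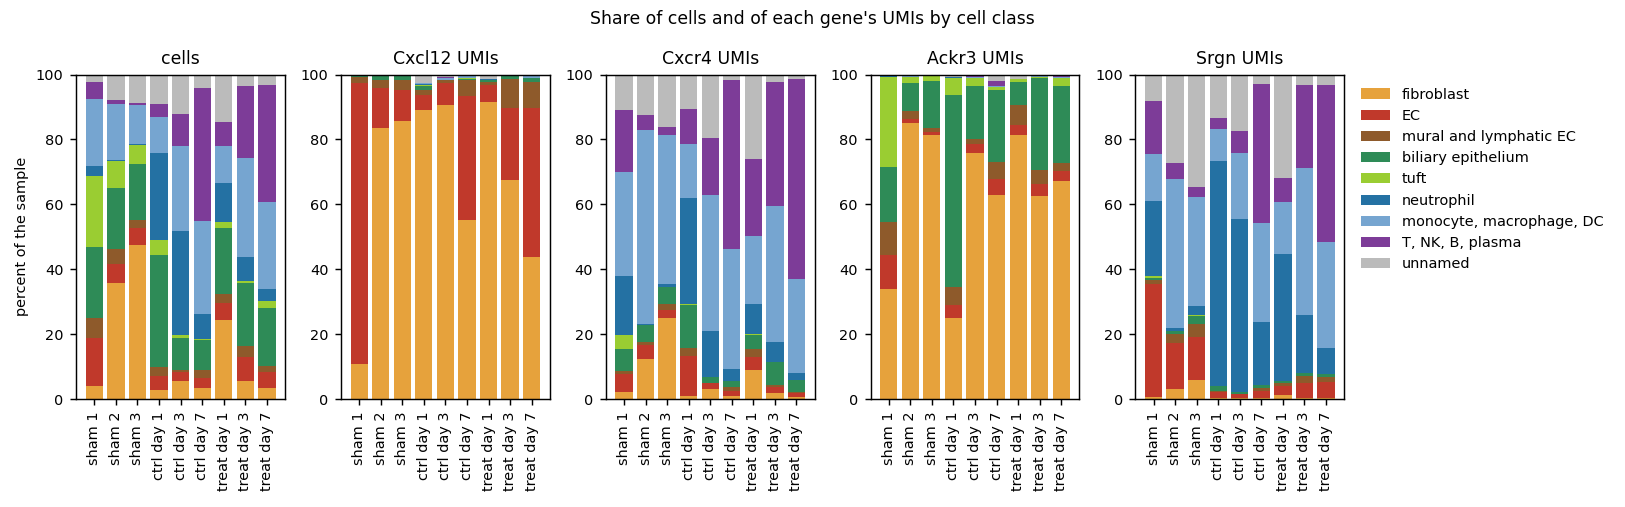
Share of all cells and of the UMIs of each gene that came from each cell class, in percent of the sample, with 1 stacked bar per sample and classes joined as in the color key. Fibroblasts and EC gave most Cxcl12 in every sample, while neutrophils gave 69.3% of Srgn in ctrl day 1 and 0.762% in sham 2.

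Within classes, Srgn was called in biliary epithelium alone among the classes tested. It stood at 5.17, 4.48 and 8.54 CPM there in sham, at 14.9, 30.2 and 52.4 CPM in ctrl and at 10.3, 21.2 and 28.7 CPM in treat. Every post-LT sample was above sham, and day 7 was the highest day of each arm. As for Cxcr4, such separation was not counted over all epithelial genes. The rises were 2.42 in ctrl (SE 0.27, adjusted p = 0.006), 1.74 in treat (SE 0.27, adjusted p = 0.029) and 1.37 from day 1 to day 7 (SE 0.30, adjusted p = 0.026), where 16.2% of epithelial genes were called. The ctrl call held with any 1 sample left out, the treat call was lost without sham 2, ctrl day 1, ctrl day 7 or any treat sample (adjusted p up to 0.146), and the call over time without any day 1 or day 7 sample (adjusted p up to 0.210). Within the Clca5 cluster, Srgn stood at 4.67, 8.75 and 49.1 CPM in sham, at 12.6, 31.8 and 49.1 CPM in ctrl and at 8.69, 19.6 and 29.6 CPM in treat, so the separation from sham did not hold there. The sham 3 value rested on 49 cells and 17 UMIs. Within the Wfdc21 cluster, Srgn was 5.35, 5.78 and 4.48 CPM in sham (244, 424 and 364 cells). It was 18.3, 30.7 and 56.3 CPM in ctrl and 9.31, 31.4 and 32.8 CPM in treat, all above sham. The epithelial clusters and the myeloid marker sum given with Cxcr4, mainly Plac8 in sham and ctrl, also differed between sham and post-LT samples. Their part in the rise was not tested. From 56.5% to 100% of the epithelial Srgn could come from empty barcodes, and after its subtraction the ctrl value was 2.08 (adjusted p = 0.150) and the treat value 2.48 (adjusted p = 0.145). The treat call was also lost with libraries as samples (1.79, adjusted p = 0.101). From day 1 to day 7 the value ranged from 1.33 to 3.43 over 7 processing alternatives, none of which lost the call.

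EC Srgn stood at 805, 539 and 506 CPM in sham, at 293, 357 and 488 CPM in ctrl and at 338, 567 and 616 CPM in treat. All ctrl samples were below sham, but the difference of -0.62 (SE 0.22, adjusted p = 0.137) missed the threshold, and up to 15.2% of EC Srgn could come from empty barcodes. Monocyte Srgn stood at 1381, 559 and 989 CPM in sham and at 1130 to 1656 CPM post-LT (ctrl 0.95, SE 0.35, adjusted p = 0.278). With 1 sample left out, that difference ranged from 0.57 to 1.33 and passed in 1 fit (edgeR adjusted p = 0.013). Tuft cell Srgn stood at 17.9, 17.1 and 29.6 CPM in sham, at 30.7, 302 and 199 CPM in ctrl and at 79.8, 34.0 and 61.8 CPM in treat (ctrl 2.70, SE 0.57, adjusted p = 0.061), with 5 to 78 UMIs a sample, of which 24.6% to 100% could come from empty barcodes. After subtraction the tuft cell median fell from 34.0 to 12.9 CPM. Macrophage Srgn was 24.6 CPM in sham 1 and 294 to 474 CPM in all other samples.

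In the 9 classes with at least 20 cells in every sample, 30 pairs of gene and class could be tested per comparison. In ctrl against sham 8 were called and 15 had an unadjusted p under 0.05, where 5.77% of all gene and class pairs were called. In treat against sham 3 were called and 11 had such a p, against 1.48% of all pairs. In treat against ctrl 0 were called by edgeR and 7 had such a p, against 0.033% of all pairs. Among the latter was mural Cxcl12, which some alternatives called. From day 1 to day 7, 2 were called and 13 had such a p, against 7.41% of all pairs. The comparisons with sham share the sham samples, and the pairs of 1 gene or 1 class are not independent.

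**Figure D5:**
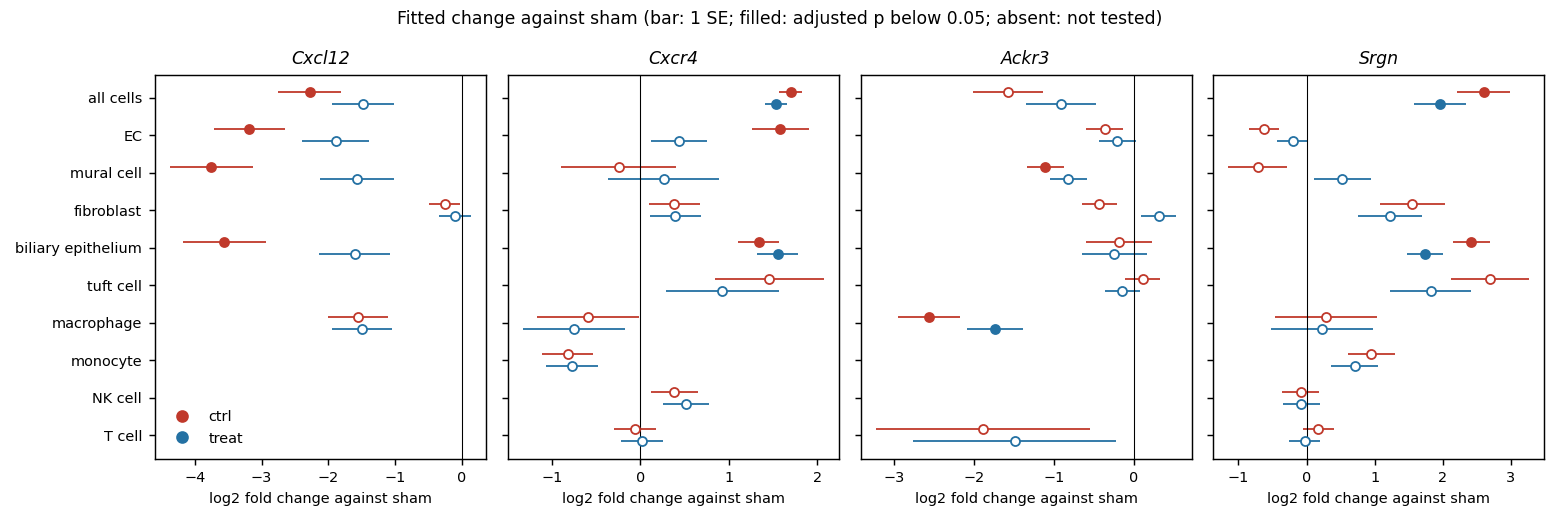
Fitted log2 differences from sham over all cells and within each class, for ctrl (red) and treat (blue), with bars of 1 SE, filled points for an adjusted p below 0.05 and no point where a gene was not tested in a class. In ctrl, Cxcl12 was -3.18 in EC and -3.75 in mural cells, against -0.26 in fibroblasts.

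The rest of the Cxcl12 pathway was followed over all cells by gene lists, where the median log2 difference of all genes was -0.06 in ctrl and in treat against sham. The counts of called genes in each list are read against the 12.2% of all genes called in ctrl, 4.74% in treat and 3.14% from day 1 to day 7. All list values below are over all cells, so the changes in the shares of cell classes can enter each of them. The part of these shares was not tested. Of 10 other ligands and co-receptors tested, 1 rose and 2 fell in ctrl (median 0.05). Cxcl11, an interferon-induced chemokine that binds Ackr3 and Cxcr3, rose by 3.87 (adjusted p = 0.018) in ctrl, by 5.60 (adjusted p = 0.020) in treat and by 5.65 from day 1 to day 7 (adjusted p = 0.028). Calcrl (-1.33, adjusted p = 0.032) and Ramp2 (-1.15, adjusted p = 0.042), which form the receptor of adrenomedullin, were lower in ctrl. Adm, which encodes adrenomedullin, another ligand of Ackr3, fell by 2.68 from day 1 to day 7 (adjusted p = 0.014), as did Cxcl14 by 3.32 (adjusted p = 0.041), whereas Cd74, the receptor of Mif, rose by 3.36 (adjusted p = 0.020).

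Among 9 proteases that can cut Cxcl12 and their inhibitors, 3 rose and 0 fell in ctrl (median 0.42), namely the gelatinase Mmp9 (5.88, adjusted p = 0.013), the antiprotease Slpi (4.54, adjusted p = 0.011) and neutrophil elastase Elane (4.06, adjusted p = 0.036). In treat, Mmp9 (4.04, adjusted p = 0.027) and Slpi (3.00, adjusted p = 0.017) rose and the metalloproteinase inhibitor Timp2 fell by 1.14 (adjusted p = 0.039). Of 22 genes of chemokine receptor signalling, 3 rose in ctrl (median 0.19), the leukocyte GTPase Rac2 (2.01, adjusted p = 0.024), Rgs19 (1.09, adjusted p = 0.029) and the receptor kinase Grk6 (0.94, adjusted p = 0.034), a share near the 12.2% of all genes. Rac2 (1.88, adjusted p = 0.042) was the 1 that rose in treat, and Rgs10 (1.86, adjusted p = 0.038) the 1 that rose over time.

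Of 12 granule proteins stored with serglycin, 4 rose in ctrl (median 2.28), Elane, granzyme A (Gzma, 3.59, adjusted p = 0.030), perforin (Prf1, 3.15, adjusted p = 0.014) and lysozyme (Lyz2, 2.71, adjusted p = 0.017). In treat, Gzma (4.24, adjusted p = 0.037), Prf1 (3.03, adjusted p = 0.025) and Lyz2 (2.53, adjusted p = 0.027) rose, and over time Gzma (5.03, adjusted p = 0.043), Prf1 (4.63, adjusted p = 0.019) and Gzmm (3.66, adjusted p = 0.037). The share of neutrophils was above all sham samples in each post-LT sample and lower at day 7 than at day 1, while T cells and NK cells were above all sham samples at day 7 of both arms. Their part in these rises was not tested. Of 18 genes that build glycosaminoglycan chains, none passed in any comparison (ctrl median -0.44), and the values farthest from 0 were those of Chsy3 (-2.19), Ndst1 (-1.41) and Chpf (-1.10). Of 14 other proteoglycan core proteins, syndecan 1 (Sdc1, 0.99, adjusted p = 0.027) rose in ctrl (median -0.78) and none passed in treat. Of 9 stromal niche factors, the leptin receptor Lepr, a mark of Cxcl12-rich stroma in bone marrow, fell by 3.18 in ctrl (adjusted p = 0.011) and by 1.84 in treat (adjusted p = 0.027), with list medians of -1.11 and -0.18. In treat against ctrl no gene of any list passed.

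Across the 13 classes with enough samples, the genes most like each of the 4 in mean log2(CPM + 1) were named by Pearson correlation over 10326 genes. For Cxcl12 they were Gulp1 (r = 0.988), Bdkrb2 (0.985), Sparc (0.984), Adamts7 (0.977) and Srpx2 (0.973). For Ackr3 they were Meis2 (0.975), Ptch1 (0.973), Enc1 (0.972), Ift46 (0.971) and Parva (0.971). For Cxcr4 they were Birc3 (0.938), Akna (0.934), Aim2 (0.932), RGD1563888 (0.931) and AABR07029272.1 (0.928). For Srgn they were Smap2 (0.939), Ube2d3 (0.933), Trim72 (0.918), Adgre5 (0.917) and Cxcr4 (0.913). Among the 4 genes, Cxcl12 and Ackr3 had r = 0.694, and Cxcr4 and Ackr3 had r = -0.889. These are descriptions over 13 points that share libraries and cell depth.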

How the data were processed

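Bile duct cells of 9 samples were sequenced as 20 libraries of the 10x Genomics 3' kind, 1 per sham sample, 3 per transplanted sample and 2 for treat day 3, whose other library was not analysed here. The authors deposited raw UMI counts per gene and barcode, empty barcodes included. The matrix headers name Cell Ranger 4, and the submitters' processing notes name Cell Ranger 5.0.1 and Seurat 3.2.0. The genome build and annotation are not given in the sources used here, so no coordinates are printed. Whether reads were counted by strand is not given either.

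A barcode was kept as a cell with over 400 and under 6000 genes, less than 25% of UMIs from mitochondrial genes and less than 3% from hemoglobin genes, limits that the study states for human data. Cells above the 92.5 percentile of a doublet score per library were removed. Cells were grouped on 2000 variable genes, 30 principal components and Leiden resolution 0.9 (leidenalg 0.10.2), without the 4 genes and the listed genes. A cluster was named with at least 3 detected markers of a class. The class names were settled after the clusters were seen and before any test between arms.

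UMI counts were summed per sample, over all cells and within each of the 9 classes with at least 20 cells in every sample, and fitted with edgeR 4.0.16 (TMM, filterByExpr, quasi-likelihood test, Benjamini-Hochberg over all genes, threshold 0.05). The 9 samples entered 1 fit with arm and day, with 4 residual degrees of freedom, so ctrl and treat were compared at matched days and both arms shared the day effect. DESeq2 1.42.0, limma 3.58.1 and the other alternatives are given at the end. The fits and the estimate of empty-barcode RNA (barcodes of at most 100 UMIs) were tested on simulated data. Levels between classes were compared by exact permutation over samples. Shares of cells with a UMI were expected shares after thinning to 1000 UMIs, leaving out shallower cells. Total UMIs set the precision, and at low levels the UMIs behind a value are given.

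The set of 4 genes, the gene lists and the classes were chosen with earlier results of these data known. Of each list, the text names the genes called in a comparison, and otherwise up to 3 with the largest log2 difference. For each of the 4 genes it names the 5 most correlated genes with at least 10 CPM in 1 class. Genes of EC kinds were added after the data were seen.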

Additional observations from a re-analysis of the deposited data

Results flagged for a closer look

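Cxcr4 and Srgn differed from sham in opposite directions in some pairs of cell classes, picked for that, although monocyte Cxcr4, EC Srgn and the tuft cell values missed the threshold. In ctrl against sham it was higher in every sample of tuft cells (1.89 on the log2(CPM + 1) scale) and lower in every sample of monocytes (-1.13), a difference of 3.02. In treat against sham it was higher in every sample of biliary epithelium (1.23) and lower in every sample of monocytes (-1.02), a difference of 2.25. Srgn in ctrl against sham was higher in every sample of tuft cells (2.51) and lower in every sample of EC (-0.70), a difference of 3.21. None of these differences between classes was tested. Tuft cell Cxcr4 and Srgn rested on few UMIs and low levels.

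The barcodes of at most 100 UMIs, which hold no cell and enter comparisons only as the RNA subtracted, carried more of 2 of the genes post-LT. Their Cxcr4 was at least 88.1 CPM in every post-LT sample, above the highest sham sample (64.3 CPM). Their Srgn was at least 382 CPM in every post-LT sample, against at most 147 CPM in sham.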

How the results depend on the processing

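With class shares held equal (limma), ctrl against sham turned to -0.31 for Cxcr4 and shrank to 0.24 for Srgn and -0.50 for Ackr3, and treat against sham to -0.39 for Cxcr4 and 0.13 for Srgn. Day 7 against day 1 turned to 0.32 for Cxcl12 and 0.71 for Ackr3, and was 0.16 for Cxcr4. That setting changes several choices at once, since it leaves out changes in class shares, drops neutrophils, B cells and the other classes short of cells, and uses limma. Ackr3 in ctrl against sham passed with library size alone (-1.86), DESeq2 (-1.54) and libraries as samples (-1.59), and Cxcl12 in treat against sham with DESeq2 (-1.45). In treat against sham, Srgn missed the threshold with library size alone (1.60) and with cells of at least 1000 UMIs (1.93). Without the day term, which pairs ctrl and treat samples of the same day (no replicate block), treat against sham missed it for Cxcr4 (1.65, adjusted p = 0.090) and Srgn (2.0, adjusted p = 0.071), as did ctrl against sham in EC for Cxcl12 (-2.59, adjusted p = 0.109) and Cxcr4 (1.88, adjusted p = 0.135) and in mural cells for Cxcl12 (-3.48, adjusted p = 0.055) and Ackr3 (-1.09, adjusted p = 0.093), and treat against sham in biliary epithelium for Cxcr4 (1.59, adjusted p = 0.073) and Srgn (1.84, adjusted p = 0.151) and in macrophages for Ackr3 (-1.70, adjusted p = 0.066). Library size alone lost the calls of macrophage Ackr3 in treat (-1.81, adjusted p = 0.056) and mural Ackr3 in ctrl (-1.15, adjusted p = 0.055). Without the day term, called genes in treat against sham fell from 778 to 1. The cause was not tested.

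Leaving out 1 sample at a time, ctrl against sham ranged from -2.87 to -1.63 for Cxcl12, 1.64 to 1.79 for Cxcr4, -1.89 to -1.30 for Ackr3 and 2.35 to 3.19 for Srgn. Treat against sham ranged from -2.30 to -0.97 for Cxcl12, 1.49 to 1.62 for Cxcr4, -1.25 to -0.63 for Ackr3 and 1.71 to 2.53 for Srgn. Treat against ctrl ranged from 0.079 to 1.36 for Cxcl12, -0.24 to -0.087 for Cxcr4, 0.58 to 0.74 for Ackr3 and -0.70 to -0.60 for Srgn. Over the other processing alternatives, treat against ctrl ranged from 0.36 to 1.09 for Cxcl12 and -0.67 to -0.11 for Srgn. Day 7 against day 1 ranged from -1.86 to 0.38 for Cxcl12 (0.38 without treat day 1, 0.02 without treat day 7), 1.4 to 1.54 for Cxcr4, -0.95 to -0.71 for Ackr3 and 0.69 to 0.79 for Srgn. Fibroblast Cxcl12 against sham ranged from -0.52 to 0.078 in ctrl (0.078 without ctrl day 3) and from -0.46 to 0.15 in treat (0.01 without treat day 1, 0.15 without treat day 7). Over all cells 102 of these values kept direction and side of the threshold, 35 lost a call, 5 gained one and 2 turned, and within classes 194 kept both, 66 lost a call, 7 gained one and 3 turned.

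Library size alone moved the median of all genes in ctrl against sham from -0.06 to -0.40 and the called genes from 1155 higher and 850 lower to 508 higher and 1999 lower. The number called there was 4815 by DESeq2, 3244 with libraries as samples, and 0 to 3984 with 1 sample left out. Leaving out ctrl day 3 libraries 2 and 3, a choice made after the data were seen, changed no call of the 4 genes.

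At 2000 UMIs and without thinning, shares of cells with a UMI were 38.7% and 72.2% for Cxcl12 in fibroblasts, 44.0% and 70.3% for Ackr3 in fibroblasts, 38.6% and 34.7% for Ackr3 in tuft cells, 40.2% and 54.0% for Cxcr4 in T cells, 4.63% and 18.2% for Cxcr4 in fibroblasts, 56.5% and 68.7% for Srgn in EC and 4.25% and 16% for Srgn in fibroblasts. Unthinned, Cxcr4 was found in 68.4% of B cells and 17.5% of EC, and at 2000 UMIs Srgn in 99.7% of neutrophils. Depth limits the values under about 10 CPM.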

Other observations

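Mast cells and glia were apart from other cells only in the finer clusters (Leiden resolution 2). Mast cells, whose granules are rich in serglycin, held 31 cells in ctrl day 7, 68 in treat day 1 and 36 in treat day 7. Their Srgn stood at 15990, 7671 and 11080 CPM in these samples, and Cxcl12 was at 0 in each. Glia held an Ackr3 level of 565 and 861 CPM in sham 2 and sham 3, of 239 CPM in ctrl day 1, and of 138, 21.0 and 44.3 CPM in treat at days 1, 3 and 7. No test was run on these small classes.

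The arms were also compared at each day with libraries as samples, a choice made after the data were seen, which assumes that libraries vary as rats would. Over all cells, Cxcl12 was higher in treat than in ctrl at day 1 by 2.60 (SE 0.69, edgeR adjusted p = 0.027), with 44.1, 6.34 and 15.6 CPM in the ctrl libraries and 125, 161 and 155 CPM in the treat libraries, where 10.6% of all genes were called. At day 3 the difference was 0.19 (adjusted p = 0.941) and at day 7 -0.45 (adjusted p = 1.00), and the difference between the arms in the change from day 1 to day 7 was -3.05 (SE 0.94, adjusted p = 0.091). Fibroblasts were 24.5% of cells in treat day 1 and 2.80% in ctrl day 1. Within mural cells Cxcl12 was also higher in treat at day 1 (3.30, SE 0.62, adjusted p = 0.030, with 0.667% of mural genes called), while within fibroblasts (0.30, adjusted p = 0.872) and EC (2.88, SE 0.79, adjusted p = 0.179) it did not pass.

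From day 1 to day 7, EC Cxcl12 rose in ctrl by 3.47 (SE 0.80, adjusted p = 0.018) and changed by 0.32 in treat (SE 0.70, adjusted p = 0.855) in the same fit by library, and the difference of these changes was -3.15 (SE 1.04, adjusted p = 0.805). EC Cxcr4 fell in ctrl by 2.40 (SE 0.71, adjusted p = 0.04955), where 8.42% of EC genes were called. In treat, EC Cxcr4 also went down, from 114 CPM at day 1 to 49.0 CPM at day 7. By library, calls among the 4 genes over these days occurred in treat too, within EC, fibroblasts and mural cells and over all cells. The shares of all genes called there were 4.59%, 22.0%, 3.39% and 16.4%. Macrophage Cxcr4 rose in ctrl by 2.24 (SE 0.46, adjusted p = 0.024), where 1.25% of macrophage genes were called. Of these macrophages, 631 of 756 at day 1 but 1071 of 3567 at day 7 were in the cluster led by Mmp12, and 115 and 2474 were in a cluster led by C1qa. Cxcr4 was 29.4 and 123 CPM in the former and 65.3 and 263 CPM in the latter. In treat at days 1 and 7 it was 51.0 and 116 CPM in the former and 130 and 238 CPM in the latter, so the direction was not particular to ctrl.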
